A study of Mus musculus with 2 samples.

Results

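The genes described here are those of cholesterol synthesis and its control by the transcription factor SREBP2, in TgS1 cells, a mouse line labelled as Schwann cells, the glia of peripheral nerves. They were chosen by name: 30 genes of the pathway, each with 1 row among the 55323 rows of the table. Total RNA was sequenced from cells in long-term culture in SCM, a medium that the labels do not spell out, and from cells in long-term culture in DMEM, a basal medium that the design text writes as S-DEMEM. Both cultures carry the genotype TTR V30M tg, a human transthyretin transgene with an amyloid-forming variant, whose promoter the labels do not give. There was 1 library for each medium, both from the same line, so no difference below has a replicate check and no test between media was possible. In bulk RNA, more RNA per cell and more cells of one kind cannot be told apart.

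Cells make cholesterol from acetyl-CoA. The mevalonate arm builds isoprenoid units, squalene and lanosterol follow, and a set of enzymes of the endoplasmic reticulum trims lanosterol to cholesterol. When sterols are scarce, SCAP carries the SREBP2 precursor from the endoplasmic reticulum to the Golgi, where a pair of proteases release the part that enters the nucleus and activates the genes of the pathway. When sterols are plentiful, INSIG proteins hold SCAP back. Myelin is rich in cholesterol, and Schwann cells make much of it themselves.

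Reads counted over the gene rows summed to 36666676 in SCM and 29085791 in DMEM, recovered as whole reads from the deposited FPKM values. FPKM is fragments per kilobase of gene, scaled here to those sums. Reads not assigned to a gene row are not part of them. With 3 reads as the floor, a 1 kb gene without reads could still stand at up to 0.0818 FPKM in SCM and 0.103 FPKM in DMEM. Ratios are FPKM in SCM over FPKM in DMEM, and the 95% interval given beside each is an exact Clopper-Pearson interval for the split of its reads. It covers counting error only: PCR copies were not marked by molecular identifiers, and each medium has a single culture. A gene was counted as higher or lower when log2((FPKM in SCM + 1) / (FPKM in DMEM + 1)) passed 2-fold. The pseudocount of 1 FPKM understates the ratio of low genes. The 7 Schwann cell markers examined, among them Sox10 and S100b, were all detected and summed to 3911 FPKM in SCM and 4082 FPKM in DMEM. Markers of hepatocytes, endothelium and macrophages each summed to at most 1.51 FPKM in either library, and of 5 fibroblast markers only Col1a2 reached 1 FPKM, at 3.145 FPKM in SCM and 0.7415 FPKM in DMEM. The markers Lum, Col1a1, Cdh5, Kdr, Adgre1, Alb and Ahsg were at 0 in both libraries.

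Promoter windows are shown because they belong to the genes on which the results turn: the 3 genes past 2-fold (Idi1, Msmo1 and Npc2), the 3 next in log2 ratio (Cyp51, Srebf2 and Hmgcs1), and Ebp, which had the lowest log2 ratio. The windows are from RefSeq on GRCm38.p6 and run from 250 bases before to 50 bases after the start of the gene. They lie at chr13:8885356-8885655 on the plus strand (Idi1), chr8:64733529-64733828 on the minus strand (Msmo1), chr12:84773063-84773362 on the minus strand (Npc2), chr5:4104648-4104947 on the minus strand (Cyp51), chr15:82147019-82147318 on the plus strand (Srebf2), chr13:119690101-119690400 on the plus strand (Hmgcs1) and chrX:8193463-8193762 on the minus strand (Ebp). Each is written 5′ to 3′ on the strand of its gene, and capitals mark matches, on either strand, to the motifs named after them.
Idi1: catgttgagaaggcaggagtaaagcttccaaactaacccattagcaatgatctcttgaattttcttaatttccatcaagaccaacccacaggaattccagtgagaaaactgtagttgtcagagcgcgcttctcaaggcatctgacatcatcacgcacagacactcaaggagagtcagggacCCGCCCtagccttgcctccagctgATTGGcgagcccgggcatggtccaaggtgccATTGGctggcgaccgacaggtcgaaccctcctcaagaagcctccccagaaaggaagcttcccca
Msmo1: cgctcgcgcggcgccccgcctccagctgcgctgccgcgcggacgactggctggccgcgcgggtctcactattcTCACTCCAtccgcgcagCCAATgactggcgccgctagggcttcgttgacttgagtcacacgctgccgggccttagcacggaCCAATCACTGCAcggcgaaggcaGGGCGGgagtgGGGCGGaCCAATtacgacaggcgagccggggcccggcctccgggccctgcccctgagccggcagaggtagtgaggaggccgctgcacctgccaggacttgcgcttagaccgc
Npc2: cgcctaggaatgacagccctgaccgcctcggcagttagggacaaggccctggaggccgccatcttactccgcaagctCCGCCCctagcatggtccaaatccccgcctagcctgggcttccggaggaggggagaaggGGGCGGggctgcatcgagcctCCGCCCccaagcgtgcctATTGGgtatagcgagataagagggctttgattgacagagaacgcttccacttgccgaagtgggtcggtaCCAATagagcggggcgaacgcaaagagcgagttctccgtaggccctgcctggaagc
Cyp51: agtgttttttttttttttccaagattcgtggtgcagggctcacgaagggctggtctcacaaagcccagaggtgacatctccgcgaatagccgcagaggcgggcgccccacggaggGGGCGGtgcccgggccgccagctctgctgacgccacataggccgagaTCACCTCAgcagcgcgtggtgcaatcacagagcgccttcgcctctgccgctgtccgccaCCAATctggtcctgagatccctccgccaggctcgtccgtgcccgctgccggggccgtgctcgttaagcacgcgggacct
Srebf2: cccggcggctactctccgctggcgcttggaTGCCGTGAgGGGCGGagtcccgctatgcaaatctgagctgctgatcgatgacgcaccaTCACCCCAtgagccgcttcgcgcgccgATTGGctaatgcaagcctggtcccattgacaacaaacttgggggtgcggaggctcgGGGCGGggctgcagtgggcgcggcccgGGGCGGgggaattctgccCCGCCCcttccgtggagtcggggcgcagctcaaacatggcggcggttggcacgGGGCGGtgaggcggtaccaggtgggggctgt
Hmgcs1: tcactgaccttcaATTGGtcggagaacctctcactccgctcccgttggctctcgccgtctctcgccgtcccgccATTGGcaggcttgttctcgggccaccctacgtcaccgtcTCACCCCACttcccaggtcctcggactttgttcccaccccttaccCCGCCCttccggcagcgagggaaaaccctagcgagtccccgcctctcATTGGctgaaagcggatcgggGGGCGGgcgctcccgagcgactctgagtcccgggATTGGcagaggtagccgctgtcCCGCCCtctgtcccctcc
Ebp: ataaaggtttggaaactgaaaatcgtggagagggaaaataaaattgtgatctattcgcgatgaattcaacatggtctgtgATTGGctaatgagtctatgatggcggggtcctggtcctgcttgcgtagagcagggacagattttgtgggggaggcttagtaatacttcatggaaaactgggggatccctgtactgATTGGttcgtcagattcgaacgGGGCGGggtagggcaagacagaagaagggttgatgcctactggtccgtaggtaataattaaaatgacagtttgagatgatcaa

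The motifs searched on both strands were the sterol regulatory element forms TCACNCCAC and CACCCCAC, the NF-Y box CCAAT, the Sp1 box GGGCGG and the E-box CACGTG. The shorter form TCACNNCA was added after the windows had been read, so its share among these genes is not independent of that choice. The sterol forms overlap each other: a TCACNCCAC match always holds TCACNNCA and may hold CACCCCAC. Of the 30 genes, 25 had at least 1 window, and 4 of these had more than 1. A gene was counted when any of its windows held a match. Fdps, Fdft1, Sqle, Stard4 and Npc1 had no window and were not searched. TCACNCCAC was found in 1 of the 25 genes (4.0%), Hmgcs1, where it begins at -137 from the start, against 1.38% of the 8423 measured genes with a window and 1.44% of all 27025 genes with one. CACCCCAC was found in 2 genes (8.0%), Hmgcs1 and Acat2, against 3.72% of measured genes and 3.30% of all genes. TCACNNCA was found in 10 genes (40.0%), against 13.15% of measured genes and 15.7% of all genes. These were Cyp51, Dhcr7, Hmgcs1, Hsd17b7, Insig2, Msmo1, Nsdhl, Pmvk, Sc5d and Srebf2. The form begins at -88 in Cyp51, at -92 and -177 in Msmo1, and at -162 and -220 in Srebf2. In Pmvk, whose ratio lay below 1, it begins at -131 in the window that starts at chr3:89454291. The other Pmvk window, which starts at chr3:89459321, holds no match to any motif.

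CCAAT stood in 21 of the 25 genes (84.0%), against 43.6% of measured genes and 41.1% of all genes. GGGCGG stood in 22 genes (88.0%), against 70.8% of measured genes and 38.2% of all genes, and CACGTG in 5 genes (20%), against 12.2% of measured genes and 8.09% of all genes. The windows of Idi1 and Npc2, which passed 2-fold, hold CCAAT and GGGCGG and no match to any of the sterol forms, and the same is true of Ebp, whose ratio lay below 1. These matches describe letters in a short window and say nothing about binding.

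Across the pathway, most genes had higher levels in SCM, by small ratios. Of the 30 genes, 29 had at least 1 FPKM in 1 or both libraries and are called measured here. On the log2 scale with the pseudocount, 26 of the 29 (89.7%) lay above 0, against 45.8% of all 12334 measured rows, and their median log2 ratio was 0.19, against -0.03 over all rows. At least 2-fold higher were 3 of 29 (10.3%), against 3.10% of all rows, and 0 of 29 were at least 2-fold lower, against 2.80%. All 30 genes are protein-coding, and among the 10081 measured protein-coding rows alone the shares were 2.48% higher and 1.44% lower. With a limit of 1.5-fold, 10 were higher and 0 lower, against 7.90% and 7.52% of all rows, and the 10 were Cyp51, Fdft1, Hmgcs1, Hsd17b7, Idi1, Msmo1, Npc2, Nsdhl, Srebf2 and Stard4. The counting interval of the plain ratio lay wholly above 1 for 20 of the 29 and wholly below 1 for 3, against 29.2% and 36.3% of all rows. Rescaled to TPM (FPKM divided by its sum in each library), 23 of 29 lay above 0, since Mbtps1, Mvk and Npc1 changed sign. At least 2-fold higher were then Idi1 and Msmo1 (2 of 29), against 560 of the 12334 rows. With the pseudocount kept at the equivalent of 1 FPKM it was Idi1 alone (1 of 29), against 340 of the 12334 rows. With a pseudocount of 3 FPKM, 0 of 29 passed 2-fold, against 148 rows higher and 131 lower. The list was assembled with results of these libraries known, so these counts describe it and are not independent evidence of a direction.

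**Figure D1:**
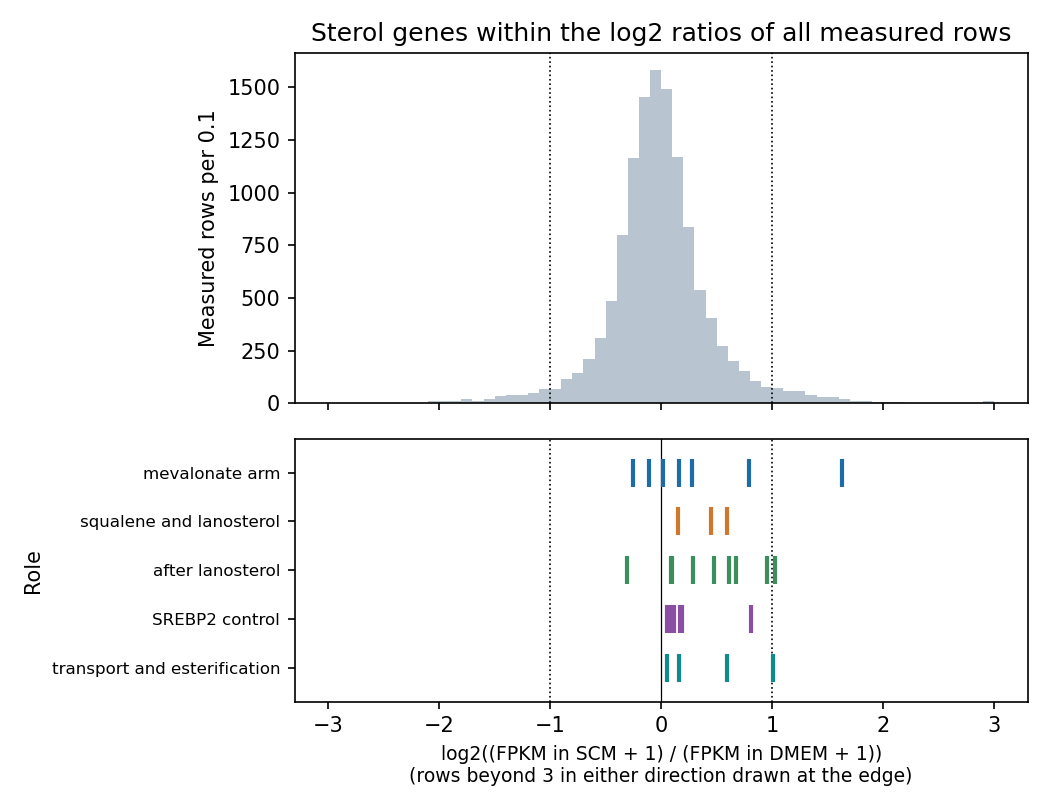
The upper panel is a histogram of log2((FPKM in SCM + 1) / (FPKM in DMEM + 1)) over 12334 measured rows in steps of 0.1, and the lower panel marks each of the 29 measured sterol genes by its role, with dotted lines at 2-fold. Most marks lie right of 0 and inside 2-fold (23 of 29 lie right of 0 in TPM), 3 lie past 2-fold on the right and 0 on the left.

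The mevalonate arm held the largest ratio of the 30 genes beside several close to 1. Of its 8 genes, 7 were measured, 1 was at least 2-fold higher and 5 of the 7 lay above 0, with a median log2 ratio of 0.16. For this and each later role, the shares over all measured rows were 3.10% at least 2-fold higher and 45.8% above 0. Idi1, the isomerase that interconverts the isoprenoid building blocks, had 4.15 FPKM (533 reads) in SCM and 0.667 FPKM (68 reads) in DMEM. Its ratio of 6.22 (4.82 to 8.13) was the largest of the 30, and its log2 ratio of 1.63 ranked 83 among the 12334 measured rows. It was the only gene of the 30 that was under 1 FPKM in one library and above it in the other. Hmgcs1, the HMG-CoA synthase at the entry to the arm, had 13.3 FPKM (2245 reads) in SCM and 7.31 FPKM (977 reads) in DMEM. That ratio was 1.82 (1.69 to 1.97), with the whole interval below 2.

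The other enzymes of the arm differed little. Acat2, the cytosolic thiolase that joins acetyl-CoA units, had 4.60 FPKM in SCM and 3.62 FPKM in DMEM, a ratio of 1.27 (1.09 to 1.485). A 445-base stretch of Acat2 matches Tcp1, which had 18506 reads in SCM and 16029 reads in DMEM, far above the 429 reads in SCM and 268 reads in DMEM of Acat2. The kinases that phosphorylate mevalonate stood on both sides of 1. Mvk had 2.27 FPKM in SCM and 2.22 FPKM in DMEM, with an interval of 0.835 to 1.25 that holds 1, and its log2 ratio turned below 0 in TPM. Pmvk, which acts on the product of Mvk, had 5.25 FPKM in SCM and 6.42 FPKM in DMEM, a ratio of 0.818 (0.699 to 0.957). Mvd, the decarboxylase that follows, rests on 199 reads in SCM and 135 in DMEM. Its levels of 2.92 FPKM in SCM and 2.50 FPKM in DMEM gave an interval of 0.935 to 1.47, which holds 1.

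The synthases at the end of the arm lengthen isoprenoid chains, and neither was above 1. Ggps1, which makes the geranylgeranyl group used to anchor proteins, had 8.76 FPKM (1516 reads) in SCM and 9.50 FPKM (1305 reads) in DMEM, a ratio of 0.9215 (0.855 to 0.993). Fdps, the farnesyl diphosphate synthase at the branch to sterols, was under 1 FPKM in both libraries and is the member that was not measured. Per length of its longest coding transcript it would pass that limit, at 1.36 FPKM in SCM and 1.39 FPKM in DMEM. As deposited it had 0.447 FPKM (69 reads) in SCM and 0.458 FPKM (56 reads) in DMEM, and the interval of its ratio (0.677 to 1.42) holds 1. Its level is uncertain, because 4 processed pseudogenes in the GENCODE M21 transcripts match its coding transcripts at 96.1% to 98.9% identity over 605 to 1066 bases, and the row Gm43738 shares 1124 of its 4208 exon bases on the same strand. The sources used here do not say how reads that match several places were counted.

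Similar sequence also touches Idi1, whose ratio is the largest. A processed pseudogene, Gm13502, is identical to Idi1 over 684 bases, 22.6% of a 3027-base transcript, and had 5 reads in SCM and 1 read in DMEM. A second, Gm35570, matches over 681 bases at 97.7% identity and had 0 reads in both. Of the measured genes, 10 have coding transcripts that match a transcript of another gene, Idi1 among them. Without these 10, 2 of 19 were at least 2-fold higher and 17 of 19 lay above 0. For Hmgcs1, Lbr, Mbtps2, Npc1, Scap and Tm7sf2, the only match was a row that overlaps the gene's own exons. The part of similar sequence in the Idi1 ratio was not tested.

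From farnesyl diphosphate to lanosterol, all 3 enzymes lay above 0, and none passed 2-fold. Their median log2 ratio was 0.45. Fdft1, the squalene synthase that commits carbon to sterols, had 32.6 FPKM (4919 reads) in SCM and 21.3 FPKM (2545 reads) in DMEM, a ratio of 1.53 (1.46 to 1.61). Sqle, the squalene epoxidase, had 8.87 FPKM (1803 reads) in SCM and 6.24 FPKM (1006 reads) in DMEM, a ratio of 1.42 (1.315 to 1.54). Lss, which closes the rings to lanosterol, had 2.62 FPKM in SCM and 2.27 FPKM in DMEM, a ratio of 1.15 (1.05 to 1.27). The ratios were thus in the order of the steps, and the intervals of Fdft1 and Sqle overlap. Fdft1 shares 774 of its 4116 exon bases (18.8%) with the opposite-strand gene Ctsb, which had 275 FPKM in SCM and 119 FPKM in DMEM, and the sources used here give no strand setting for the counting. The part of Ctsb reads in the Fdft1 value was not tested.

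**Figure D2:**
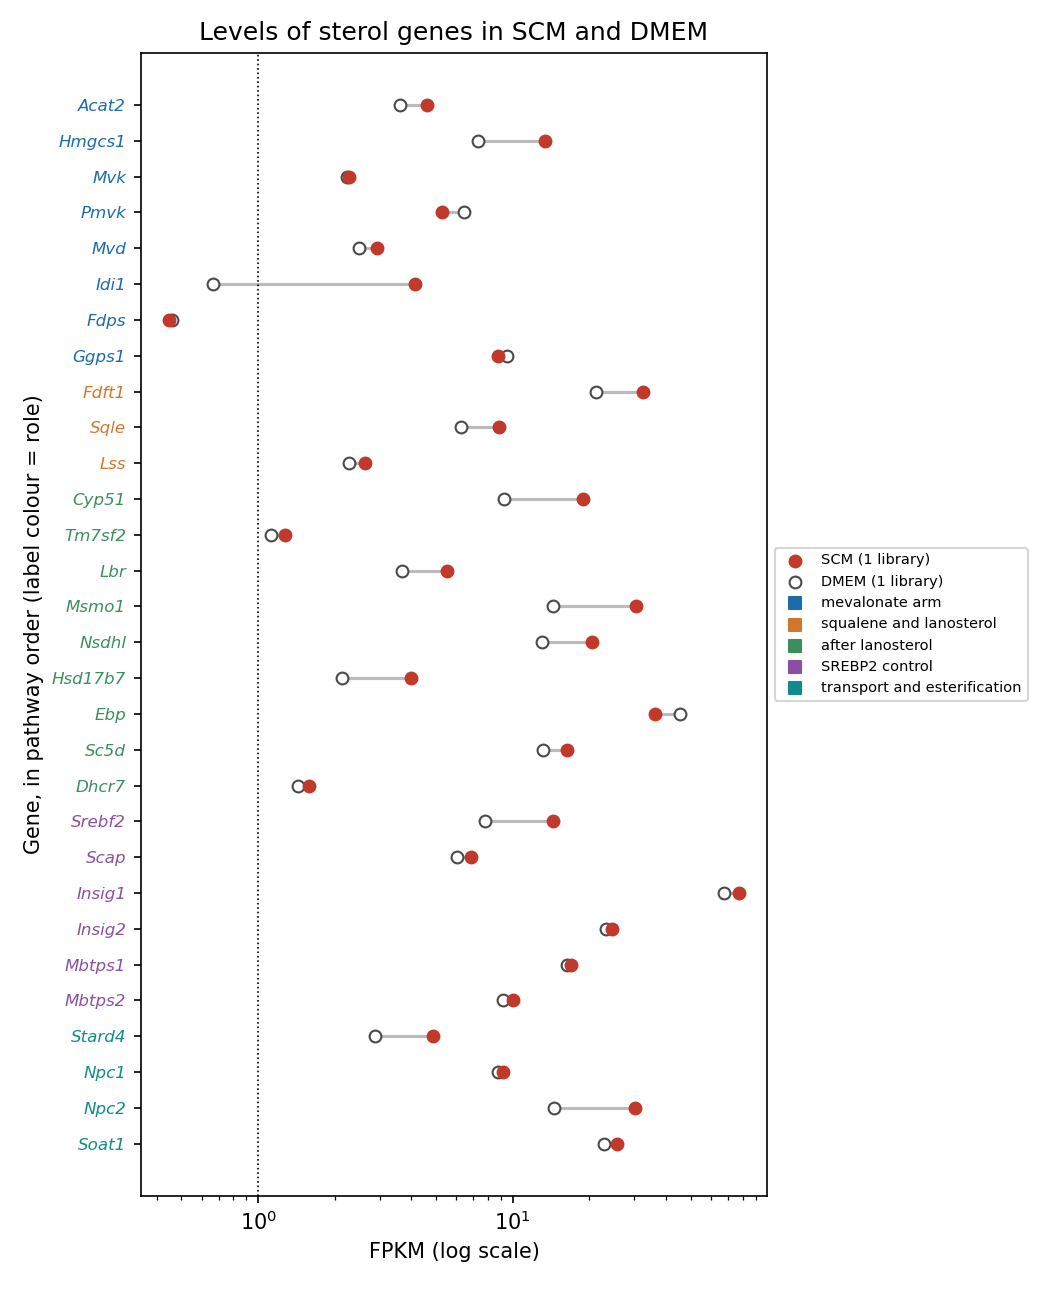
FPKM on a log axis for each of the 30 genes in pathway order, with filled points for the SCM library and open points for the DMEM library, and a dotted line at 1 FPKM. The longest gap is that of Idi1, which crosses 1 FPKM, whereas Insig1 and Ebp stand highest in both libraries, per deposited length, with short gaps.

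The enzymes after lanosterol had the highest median log2 ratio of the 5 roles by a small margin, 0.48 against 0.45 from farnesyl diphosphate to lanosterol. With a pseudocount of 3 FPKM the order turned, since the middle genes, Lbr and Sqle, had 0.35 and 0.36. All 9 were measured, 8 lay above 0, 1 was at least 2-fold higher and 0 lower. Msmo1, the methylsterol monooxygenase that starts removal of the methyl groups of the first ring, had 30.45 FPKM (6859 reads) in SCM and 14.4 FPKM (2577 reads) in DMEM. Its ratio was 2.11 (2.02 to 2.21), and its log2 ratio was 1.03, or 0.94 with a pseudocount of 3 FPKM, and it also missed the limit under the TPM scaling with the pseudocount kept at the equivalent of 1 FPKM. Nsdhl, the dehydrogenase that removes the carboxyl group left by Msmo1, had 20.5 FPKM (2141 reads) in SCM and 13.03 FPKM (1081 reads) in DMEM, a ratio of 1.57 (1.46 to 1.69). Hsd17b7, the ketosterol reductase that completes the same demethylation, had 3.98 FPKM (745 reads) in SCM and 2.13 FPKM (316 reads) in DMEM, a ratio of 1.87 (1.64 to 2.14). All 3 enzymes of the demethylation were therefore above 1.5 in plain ratio.

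Cyp51, the demethylase that acts on lanosterol itself, stood next to the limit. It had 18.85 FPKM (3051 reads) in SCM and 9.26 FPKM (1189 reads) in DMEM, a plain ratio of 2.035 (1.90 to 2.18) and a log2 ratio of 0.95 with the pseudocount. The sterol reductases Lbr and Tm7sf2 carry out the same reaction after Cyp51, and Lbr is also the lamin B receptor of the inner nuclear membrane. Lbr had 5.53 FPKM (965 reads) in SCM and 3.68 FPKM (509 reads) in DMEM, a ratio of 1.504 (1.35 to 1.68). Tm7sf2 had 1.27 FPKM in SCM and 1.12 FPKM in DMEM, and its interval of 0.908 to 1.41 holds 1. Per deposited length Lbr stood above Tm7sf2 by 4.35-fold in SCM and 3.27-fold in DMEM, and per length of the longest coding transcript in GENCODE M21 by 2.01-fold in SCM and 1.51-fold in DMEM. Tm7sf2 shares 532 exon bases with Vps51 on the same strand, which had 3.80 FPKM in SCM and 4.69 FPKM in DMEM.

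The last steps showed smaller ratios. The interval of Ebp lay wholly below 1, as did those of Pmvk and Ggps1 in the mevalonate arm. Ebp, the isomerase that shifts the double bond of the sterol ring, had 36.3 FPKM (3076 reads) in SCM and 45.35 FPKM (3047 reads) in DMEM. Its ratio of 0.801 (0.761 to 0.842) was the lowest of the 30, and its level was second to Insig1 in both libraries per deposited length. Per length of the longest coding transcript Msmo1 and Npc2 also stood above it in SCM. Sc5d, the desaturase that acts after Ebp, had 16.35 FPKM in SCM and 13.2 FPKM in DMEM, a ratio of 1.24 (1.17 to 1.315). Dhcr7, the reductase of the final double bond, had 1.585 FPKM in SCM and 1.43 FPKM in DMEM, and its interval of 0.937 to 1.31 holds 1. Msmo1 stood at 0.838 of the level of Ebp in SCM and at 0.318 in DMEM per deposited length. The order in SCM turns with transcript length, which gives 1.90 in SCM and 0.721 in DMEM.

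**Figure D3:**
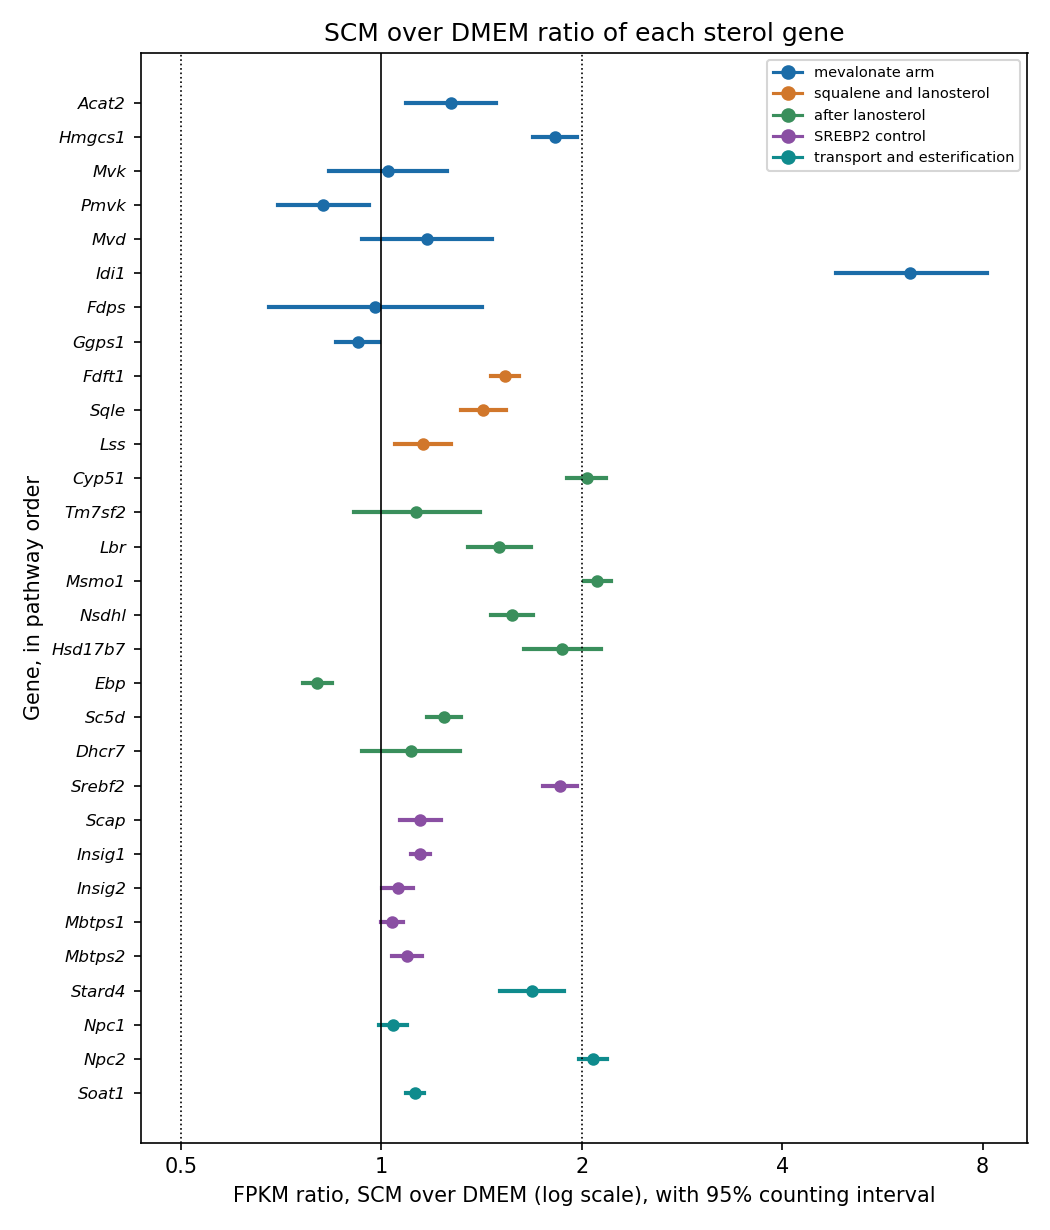
FPKM ratio of SCM over DMEM on a log axis for each of the 30 genes in pathway order, coloured by role, with 95% counting intervals as bars and lines at 0.5, 1 and 2. Idi1 stands alone at 6.22, Cyp51, Msmo1 and Npc2 lie at about 2, and Pmvk, Ggps1 and Ebp have intervals below 1.

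Among the control genes, Srebf2 stood apart from the rest of the machinery. All 6 lay above 0, 5 of them also in TPM (Mbtps1 did not), with a median log2 ratio of 0.14, and 0 passed 2-fold. Srebf2, which encodes SREBP2, had 14.4 FPKM (3796 reads) in SCM and 7.76 FPKM (1622 reads) in DMEM, a ratio of 1.86 (1.75 to 1.97) and a log2 ratio of 0.81. Scap, the escort protein, had 6.88 FPKM in SCM and 6.01 FPKM in DMEM, a ratio of 1.14 (1.07 to 1.23). The proteases that cleave SREBP2 were close to 1. Mbtps1, the site-1 protease, had 16.95 FPKM in SCM and 16.3 FPKM in DMEM, a ratio of 1.04 with an interval (0.9995 to 1.08) that holds 1. Mbtps2, the site-2 protease, had 9.98 FPKM in SCM and 9.135 FPKM in DMEM, a ratio of 1.09 (1.04 to 1.15).

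The INSIG genes were close to 1 in ratio and apart in level. Insig1, which SREBP2 itself induces and whose protein retains SCAP, had the highest level of the 30 genes per deposited length in both libraries, at 77.2 FPKM (8757 reads) in SCM and 67.5 FPKM (6076 reads) in DMEM. Per length of the longest coding transcript, Msmo1 stood above it in SCM, at 91.5 against 88.6 FPKM, and Insig1 stayed highest in DMEM. The ratio of Insig1 was 1.14 (1.11 to 1.18), below those of Srebf2 and Hmgcs1. Insig2, the paralogue with the same role, had 24.5 FPKM (3117 reads) in SCM and 23.1 FPKM (2337 reads) in DMEM, a ratio of 1.06 (1.002 to 1.12). Insig1 exceeded Insig2 by 3.155-fold in SCM and 2.92-fold in DMEM.

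Transport and storage genes all lay above 0, all but Npc1 also in TPM, with 1 of 4 at least 2-fold higher and a median log2 ratio of 0.38. Npc2, the soluble lysosomal protein that hands cholesterol to NPC1, had 30.3 FPKM (6044 reads) in SCM and 14.6 FPKM (2304 reads) in DMEM. Its ratio was 2.08 (1.98 to 2.18), and its log2 ratio, just past the limit, no longer passed it in TPM or with a pseudocount of 3 FPKM (0.92). Npc1, the membrane protein that exports that cholesterol, had 9.15 FPKM (3797 reads) in SCM and 8.79 FPKM (2893 reads) in DMEM, and its interval of 0.992 to 1.09 holds 1. The level of Npc2 was 3.31-fold that of Npc1 in SCM and 1.66-fold in DMEM. Stard4, a soluble sterol carrier whose gene SREBP2 activates, had 4.85 FPKM (994 reads) in SCM and 2.89 FPKM (469 reads) in DMEM, a ratio of 1.68 (1.505 to 1.88). Soat1, which esterifies cholesterol for storage, had 25.7 FPKM (9219 reads) in SCM and 22.9 FPKM (6509 reads) in DMEM, a ratio of 1.12 (1.09 to 1.16).

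Levels per length spanned a wide range, with Insig1 and Ebp highest and Fdps lowest in both media by the deposited gene lengths. The 30 genes ran from 0.447 FPKM (Fdps) to 77.2 FPKM (Insig1) in SCM and from 0.458 to 67.5 FPKM, for the same genes, in DMEM. Summed FPKM was 440.5 in SCM and 345.1 in DMEM over the 30 genes. The 6 control genes summed to 149.9 FPKM in SCM and 129.9 FPKM in DMEM, and the 9 enzymes after lanosterol to 134.8 FPKM in SCM and 103.6 FPKM in DMEM. The 8 genes of the mevalonate arm summed to 41.7 FPKM in SCM and 32.7 FPKM in DMEM. These levels rest on the deposited gene lengths, which were 1.02 times (Sc5d) to 3.04 times (Fdps) the longest coding transcript in GENCODE M21. Levels of genes with long deposited lengths, such as Fdps, Msmo1 and Tm7sf2, are therefore lower than a transcript-based value would be, and the order of levels depends on the lengths used, while plain ratios between media do not.

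Lists of neighbouring genes had median log2 ratios from 0.00 to 0.24, and each list was assembled with earlier results of these libraries known. Over all 12334 measured rows, 3.10% were at least 2-fold higher, 2.80% lower and 45.8% above 0. Of 12 genes of the sterol-sensing and degradation machinery of the endoplasmic reticulum, 10 were measured, 0 passed 2-fold and 7 lay above 0, with a median log2 ratio of 0.06. The highest was Erlin2, a scaffold of sterol-dependent degradation, at 17.9 FPKM in SCM and 10.45 FPKM in DMEM, and the lowest Vcp, the segregase, at 58.8 FPKM in SCM and 67.85 FPKM in DMEM. Of 14 genes that use isoprenoids for dolichol, ubiquinone, protein prenylation and transfer RNA, 12 were measured, 0 passed 2-fold, and the median was 0.00 with 6 above 0 and 6 below. Coq2, of ubiquinone synthesis, was highest at 11.85 FPKM in SCM and 9.015 FPKM in DMEM, and Rabggtb, a prenyltransferase subunit, lowest at 9.02 FPKM in SCM and 10.5 FPKM in DMEM.

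Sterol transfer and lysosomal genes numbered 16, of which 15 were measured, 0 were at least 2-fold higher and 1 lower, with a median of 0.11. The lower one was Osbpl6, an oxysterol-binding-protein relative, at 2.65 FPKM (978 reads) in SCM and 6.41 FPKM (1876 reads) in DMEM, a ratio of 0.4135 (0.382 to 0.447). In this list Lamp1, a lysosomal membrane protein, had the highest log2 ratio, 0.49, below that of Npc2. Of 11 oxysterol and further sterol enzymes 5 were measured and 0 passed 2-fold, with a median of 0.02. Cyp46a1, a cholesterol hydroxylase, had 1.06 FPKM in SCM and 0.481 FPKM in DMEM, and Cyp39a1, an oxysterol hydroxylase, 10.45 FPKM in SCM and 15.9 FPKM in DMEM.

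Liver X receptors sense oxysterols and induce cholesterol export. Of 8 genes of that list 7 were measured, 3 were at least 2-fold higher and 0 lower, against 3.10% and 2.80% of all rows. The median was 0.03. Those 3 were Apoe, the lipid carrier, at 125.8 FPKM in SCM and 25.5 FPKM in DMEM, Mylip, a ligase that degrades lipoprotein receptors, at 23.6 FPKM in SCM and 8.27 FPKM in DMEM, and Abca1, the cholesterol exporter, at 72.6 FPKM in SCM and 33.5 FPKM in DMEM. Srebf1, the paralogue of Srebf2 and itself a target of these receptors, was the lowest of the list, at 5.77 FPKM (1192 reads) in SCM and 7.585 FPKM (1243 reads) in DMEM, a ratio of 0.761 (0.702 to 0.824). The SREBP genes thus lay on opposite sides of 1. Of 13 fatty acid genes under SREBP1, 10 were measured, 1 was at least 2-fold higher and 0 lower, 9 lay above 0, and the median was 0.24. Scd1, the stearoyl-CoA desaturase, was the higher one, at 217.9 FPKM in SCM and 78.5 FPKM in DMEM, and Me1, the cytosolic malic enzyme that supplies NADPH, was lowest at 7.91 FPKM in SCM and 13.5 FPKM in DMEM.

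**Figure D4:**
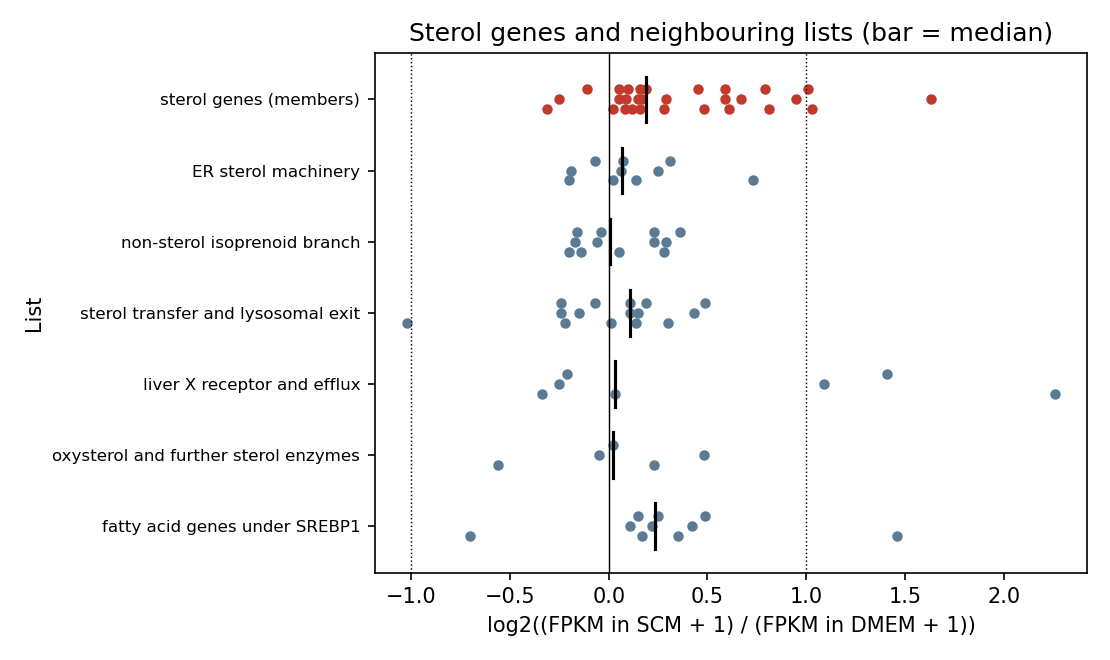
Each point is the log2((FPKM in SCM + 1) / (FPKM in DMEM + 1)) of 1 measured gene, for the 29 sterol genes and the 6 neighbouring lists, spread vertically only so that points can be seen, with a bar at the median and dotted lines at 2-fold. The sterol genes and the fatty acid genes have medians of 0.19 and 0.24, and the liver X receptor list divides into 3 genes past 2-fold and 4 near or below 0.

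Genes of dividing cells also differed between these libraries. The 4 markers examined summed to 13.35 FPKM in SCM and 5.70 FPKM in DMEM. Their plain ratios were 2.69 for Mki67, 2.17 for Top2a, 2.20 for Cdk1 and 2.87 for Ccnb1, which was under 1 FPKM in both libraries. With the pseudocount, all 3 measured markers lay above 0, against 45.8% of all measured rows. Mki67 alone was at least 2-fold higher on that scale, at 4.50 FPKM in SCM and 1.67 FPKM in DMEM. The part of these genes, and of the fibroblast marker Col1a2, in the sterol gene ratios was not tested. Neighbouring genes on the genome bear on a few members, since 5 of the 30 share exon bases with another measured row. Besides Fdft1 and Tm7sf2 these were Ggps1 with Arid4b (257 bases), Cyp51 with Akap9 (166 bases) and Npc1 with Rmc1 (511 bases), all on opposite strands. Without those 5, 3 of 24 genes were at least 2-fold higher and 22 of 24 lay above 0.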

How the data were processed

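Total RNA of 1 SCM culture and 1 DMEM culture was sequenced as stranded libraries, per the labels' protocols. The authors deposited FPKM values for both libraries in 1 table with gene lengths. Per the submitters' processing notes, the tools were STAR 2.7.9a, featureCounts 2.0.1, cutadapt 3.1, Trimmomatic 0.39 and Trim Galore, and the builds GRCm38.p6 and mm10. Coordinates in the table matched RefSeq GRCm38.p6 spans for 0 of the 30 genes, so none is printed. FPKM times length gave whole reads in 100% of rows (within 0.01), 36666676 in SCM and 29085791 in DMEM.

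Columns were matched to samples by the medium in their names. The genes and lists were chosen with earlier results of these data known. All 30 genes are named. From each other list, genes past 2-fold are named, or otherwise the highest and lowest. Lamp1, Srebf1 and Me1, the lowest or highest of lists that also had a gene past 2-fold, were named after their values were seen. Values were compared with Python 3.11.15, pandas 2.3.3 and SciPy 1.17.1. No count model was fitted, with 1 library per medium. The steps were tested on simulated data. Transcripts of other genes at 95% identity or more over at least 200 bases were found with BLAST 2.17.0. The comparison of paralogous proteins was not run. Alternatives changed the pseudocount, filter, scaling, fold limit and rows kept. Other genes of the pathway are not reported here.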

Additional observations from a re-analysis of the deposited data

How the results depend on the processing

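The count of 3 sterol genes at least 2-fold higher depended on the pseudocount and the limit: it was 0 with a pseudocount of 3 FPKM and 10 at a 1.5-fold limit, and 0 genes were at least 2-fold lower in every setting run. It was 4 with a pseudocount of 0.1 FPKM, where Cyp51 joined, 2 in TPM, where Npc2 did not pass, and 1 (Idi1) under the TPM scaling with the pseudocount kept at the equivalent of 1 FPKM, an alternative added after seeing the data. TPM values were 4.04 times FPKM in SCM and 4.22 times in DMEM, so plain TPM also changes the effective pseudocount. Above 0 were 17 of 20 genes with a filter at 5 FPKM, and 17 of 19 without genes whose transcripts match another gene, overlapping rows included. The second alternative was chosen after seeing the data, and fewer genes entered both counts. Mbtps1, Mvk and Npc1 changed sign under TPM. The median log2 ratio of the genes ran from 0.13 to 0.24. Over all rows, 382 were higher and 345 lower. These were 681 and 625 with a pseudocount of 0.1, 148 and 131 with 3, 210 and 165 with the 5 FPKM filter, 974 and 928 at 1.5-fold, 250 and 145 among the 10081 protein-coding rows, 560 and 612 in TPM, and 340 and 365 under the TPM scaling with matched pseudocount. With a pseudocount of 3, the log2 ratios of 8 of 29 genes moved by more than 0.5 of the width of their counting interval on that scale, that of Idi1 to 0.96. Genes with few reads, Fdps, Idi1, Mvd and Tm7sf2 first, carry the widest counting intervals. No paired analysis was possible because there was 1 library per medium.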

Other observations

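Srebf2 hosts the microRNA gene Mir33 within its span, and that row had 0 reads in both libraries. Whether these libraries could hold so short an RNA was not tested, so the count does not show that it was absent. The row Gm49502, also within the span and on the same strand, had 49 reads in SCM and 27 reads in DMEM. Tcp1 matches Acat2 at 98.7% identity over 445 bases and had 18506 reads in SCM and 16029 reads in DMEM, and its part in the Acat2 value was not tested. Acat3, which matches Acat2 at 97.7% identity over 1477 bases, had 16 reads in SCM and 26 reads in DMEM, against 429 reads in SCM and 268 reads in DMEM for Acat2.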
